A study of Mus musculus with 4 samples.

Results

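The 83 genes described here encode heat shock proteins, their J-protein and Bag partners and subunits of the cytosolic chaperonin, measured in the infarcted hearts of mice with and without a cardiac reprogramming transgene. They were chosen by gene symbol: names beginning with Hspa, Hspb, Hspd, Hspe, Hspf or Hsph, the numbered Dnaja, Dnajb, Dnajc, Bag and Cct genes, and Cryab. Each of the 83 was read by 1 probe, among the 19505 gene symbols and 22206 probes of the Clariom S Mouse array. By the known home of their proteins, 50 were placed in the cytosol and nucleus, 13 in the endoplasmic reticulum (ER), 10 in mitochondria and 7 on vesicles or elsewhere, and 3 (Cct8l1, Hspb11 and Hspbap1) were not assigned. Hspa8, Dnaja1, Cct6a and Hsf1 were not analysed here.

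All 4 hearts came from male mice whose left coronary artery was tied at 8 weeks of age, and whole hearts were taken 3 months later. Mice whose ejection fraction was over 45% at 2 days were left out of the study, per the labels. The 2 control hearts (Ctrl-MI) had the genotype Tcf21iCre/Tomato, and the 2 transgenic hearts (TTg-MI) had the genotype Tcf21iCre/Tomato/MGTH2A, so both groups carried the Cre and the reporter. Tcf21, the gene named in the Cre, is active in cardiac fibroblasts, whereas the RNA was from the whole heart. MGTH2A is known as a joint construct of the heart factors Mef2c, Gata4, Tbx5 and Hand2. The design text calls the 2 hearts of a group independent biological replicates.

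Chaperones bind unfolded proteins and help them to fold, assemble or be degraded. Hsp70 proteins do this in cycles of ATP use that J-proteins start and nucleotide exchange factors such as Bag proteins end, while small heat shock proteins hold unfolding proteins without ATP and chaperonins enclose them in a barrel. When proteins unfold in the cytosol, the factor Hsf1 binds heat shock elements and switches on the inducible members; the ER and the mitochondria keep chaperones of their own. In heart muscle the small heat shock proteins are abundant and guard the sarcomere and its filaments.

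Values are log2 expression as deposited, and differences subtract the mean of Ctrl-MI from that of TTg-MI, so that a positive value is higher in TTg-MI and 1 unit is a doubling. Array medians lay between 6.55 and 6.62, and the lower quartiles between 5.41 and 5.48. Of the construct's factors, Tbx5 read 7.62 and 7.88 in Ctrl-MI and 10.68 and 9.72 in TTg-MI, and Mef2c 12.67 and 13.02 against 16.01 and 13.97. The groups overlapped for the other two, Gata4 (13.39 and 13.74 against 14.07 and 13.38) and Hand2 (9.09 and 8.24 against 9.94 and 8.93). All 8 cardiomyocyte markers examined were bright, with mean levels of 18.14 and 18.53 on the Ctrl-MI arrays and 18.54 and 18.58 on the TTg-MI arrays. Ctrl-MI replicate 1 was the highest or the lowest of the 4 arrays for 63.9% of the 83 genes and 58% of all probes, more than any other array.

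None of the 83 genes passed limma with Benjamini-Hochberg adjustment over all probes, where 1 probe of 22206 passed (0.0045%); the smallest adjusted p among them was 0.531, for Hspb1. At an unadjusted limma p under 0.05 there were 6, all cytosolic and all lower in TTg-MI (7.23% of the 83, against 8.25% of all probes). Of all probes, 5.07% passed that mark as lower and 3.18% as higher. After quantile normalization 3 were lower and 2 higher at that mark, with dim probes removed 3 were lower, and with limma's trend and robust prior 1 was lower and 1 higher, against 8.46%, 8.91% and 8.01% of all probes. An ordinary linear model without limma's shared variance gave 4 at that mark (5.59% of all probes) and 0 after adjustment. The unadjusted count went to 14 (8 higher and 6 lower) if Ctrl-MI replicate 2 was dropped, when 14.7% of all probes passed, and to 2 if TTg-MI replicate 1 was dropped, when 5.79% did. The arrays of the groups did not overlap for 29 of the 83 (34.9%, against 38.1% of all probes). As a whole the list was therefore near the background, and its median difference was -0.016 against 0.011 for all probes.

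Group means leaned in different directions by compartment. Mitochondrial members had a higher TTg-MI mean in 10 of 10 cases, where 52.3% of all probes did, with a median difference of 0.34 (1.26-fold). That median became 0.148, with 7 of 10 higher, when Ctrl-MI replicate 1 was left out. Cytosolic members had a lower mean in 30 of 50 cases, where 47.7% of all probes did, with a median of -0.108, which became -0.031 with Ctrl-MI replicate 2 left out and -0.068 if TTg-MI replicate 1 was dropped. ER members had a lower mean in 9 of 13 cases, with a median of -0.055. Genes of a list share the same 4 hearts and are not replicates, and no test of the lists or of the difference between compartments was run.

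**Figure D1:**
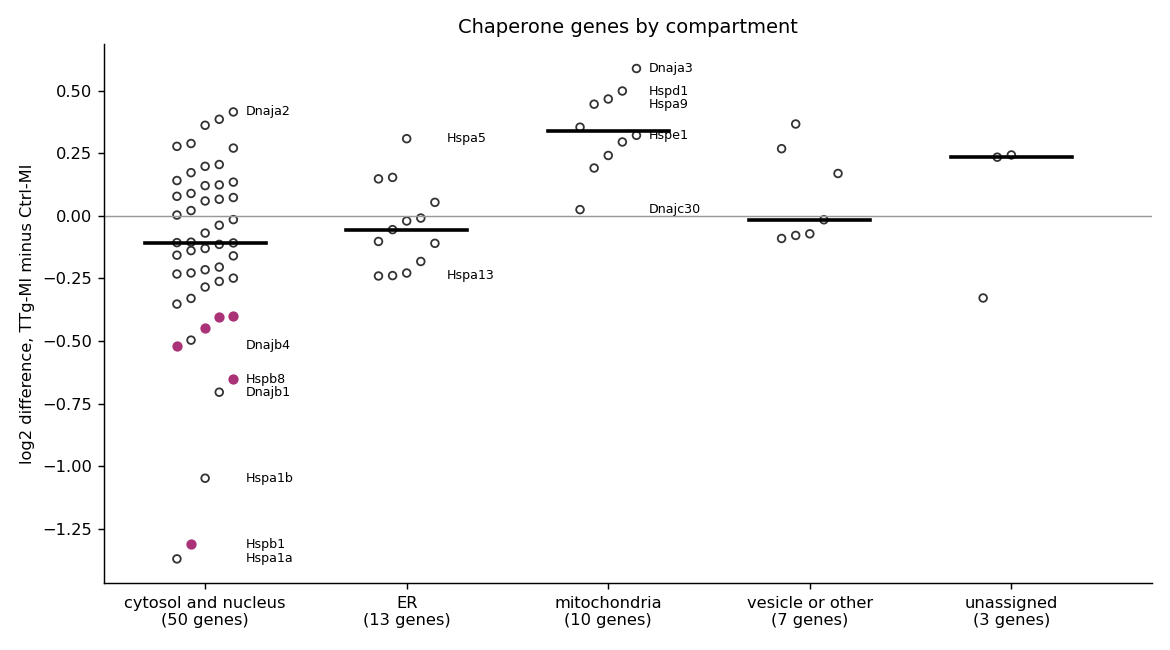
Log2 differences (TTg-MI minus Ctrl-MI) of the 83 genes by compartment; each point is a gene, filled where the unadjusted limma p was under 0.05, and the bar is the median. The 10 mitochondrial genes all lie above 0, and the 6 filled points are all cytosolic and below 0.

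The small heat shock proteins held the clearest differences. Hspb1 (Hsp27), which caps actin filaments and is induced by stress, read 13.69 and 13.49 in Ctrl-MI and 11.98 and 12.57 in TTg-MI. Both transgenic hearts were thus below both controls by 0.92 or more. The group means were 13.59 ± 0.14 and 12.28 ± 0.42 (SD, n = 2 each), a difference of -1.31 (SE 0.24), or 2.48-fold lower in TTg-MI (limma, unadjusted p = 0.0019, adjusted p = 0.531 over all probes). With single arrays left out the difference ran from -1.61 to -1.02.

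Cryab (alpha B-crystallin), the partner of desmin in heart muscle, read 19.02 and 19.11 in Ctrl-MI and 18.65 and 18.68 in TTg-MI. The groups did not overlap, and the difference was -0.40 (SE 0.15; limma, unadjusted p = 0.0383, adjusted p = 0.588). The Ctrl-MI values lay within 1 unit of the highest value of their arrays, where the scale may be compressed. After quantile normalization the difference was -0.25 (limma, unadjusted p = 0.136, adjusted p = 0.688). Hspb8, which works with Bag3 to clear damaged filament proteins, read 15.08 and 15.35 against 14.79 and 14.33. Its difference was -0.65 (SE 0.22; limma, unadjusted p = 0.0254, adjusted p = 0.572), again without overlap of the groups. It was -0.43 with TTg-MI replicate 2 left out and -0.88 with the other transgenic heart left out.

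Hspb2, the neighbour of Cryab on the chromosome, differed the other way, with 8.84 and 9.22 in Ctrl-MI and 9.36 and 9.46 in TTg-MI (0.39, SE 0.19, and 0.20 without Ctrl-MI replicate 1). That gene and Hspb3 (0.09, SE 0.18), its partner in muscle, were named after their values were seen. Hspb6 and Hspb7, both abundant in heart, sat at the top of the scale on all 4 arrays, between 19.66 and 19.93, where differences cannot be read. Hspb9, a testis gene, differed by -0.26 between dim values of 5.60 to 6.10. Of the 8 small heat shock genes, 5 had a lower TTg-MI mean and the median was -0.20.

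**Figure D2:**
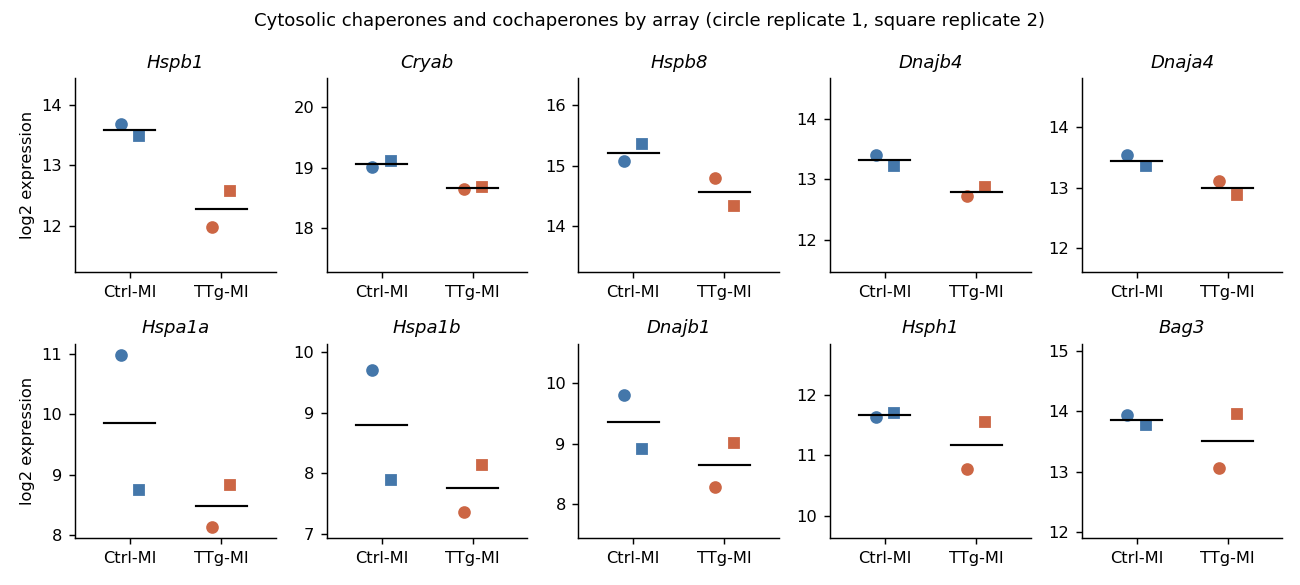
Log2 expression of 10 cytosolic chaperones and cochaperones on each array; circles are replicate 1, squares replicate 2, bars are group means, and every panel spans the same number of log2 units. The upper 5 show no overlap between groups, whereas Hspa1a, Hspa1b and Dnajb1 are high on Ctrl-MI replicate 1 and near one another on the other 3 arrays.

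Hspa1a and Hspa1b, the paired genes of the stress-induced Hsp70, had large mean differences that rested on 1 heart. Hspa1a read 10.97 and 8.74 in Ctrl-MI and 8.14 and 8.83 in TTg-MI, and Hspa1b read 9.70 and 7.89 against 7.36 and 8.14. In both, Ctrl-MI replicate 1 was the high array, and Ctrl-MI replicate 2 lay between the transgenic hearts. The differences were -1.37 (SE 0.72) for Hspa1a and -1.05 (SE 0.61) for Hspa1b (limma, unadjusted p = 0.108 and 0.14, adjusted p = 0.69 and 0.725). Without Ctrl-MI replicate 1 they were -0.25 and -0.14. Without Ctrl-MI replicate 2 they were -2.49 and -1.95, with the high array as the only control left. These genes are near-identical copies, so signal may be shared between their probes.

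Their promoters show that likeness. The 160 bases before each start, from RefSeq on GRCm38.p6, match at 159 positions, at chr17:34972157-34972316 for Hspa1a and chr17:34959239-34959398 for Hspa1b, both on the minus strand. They are shown with Hspb1 (chr5:135887759-135887918, plus strand) because these 3 genes had the largest differences of the 83. Capitals mark the short heat shock core, GAANNTTC or TTCNNGAA on either strand, each with 2 free bases (N), a motif added after the values were seen.
Hspa1a: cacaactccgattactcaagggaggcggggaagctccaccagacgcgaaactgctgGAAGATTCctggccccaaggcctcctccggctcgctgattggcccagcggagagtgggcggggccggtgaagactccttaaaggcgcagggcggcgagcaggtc
Hspa1b: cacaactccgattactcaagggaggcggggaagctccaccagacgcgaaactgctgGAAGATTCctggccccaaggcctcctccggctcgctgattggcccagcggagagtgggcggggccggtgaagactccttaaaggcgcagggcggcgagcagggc
Hspb1: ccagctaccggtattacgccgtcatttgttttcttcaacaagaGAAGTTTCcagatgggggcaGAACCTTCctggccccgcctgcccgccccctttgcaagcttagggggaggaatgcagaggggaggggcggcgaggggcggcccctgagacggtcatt
The core occurs 1 time in each Hspa1 stretch, 104 bases before the start, and at 2 places in Hspb1, 117 and 97 bases before it.

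Other cytosolic Hsp70 genes showed smaller differences. Hsph1, the Hsp110 exchange factor that is induced with Hsp70, read 11.62 and 11.69 in Ctrl-MI and 10.77 and 11.55 in TTg-MI. The groups did not overlap, but the difference of -0.50 (SE 0.28) became -0.89 with TTg-MI replicate 2 left out and -0.105 with TTg-MI replicate 1 left out. Hspa12b, a distant Hsp70 relative of endothelial cells, read 9.40 and 9.33 against 8.99 and 8.93, a difference of -0.41 (SE 0.15; limma, unadjusted p = 0.0376, adjusted p = 0.588). Of the 5 endothelial markers measured, 2 had a higher and 3 a lower TTg-MI mean, with mean levels of 12.30 and 12.05 in Ctrl-MI and 12.45 and 12.08 in TTg-MI, and their part in the Hspa12b difference was not tested. The remaining cytosolic Hsp70 genes, Hspa1l, Hspa2, Hspa4, Hspa4l, Hspa12a and Hspa14, differed by -0.33 to 0.12.

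J-proteins of classes A and B deliver unfolded proteins to Hsp70. Dnajb4, a close relative of Dnajb1 found in muscle, read 13.41 and 13.22 in Ctrl-MI and 12.73 and 12.87 in TTg-MI, a difference of -0.52 (SE 0.16; limma, unadjusted p = 0.0205, adjusted p = 0.558). Dnaja4 read 13.54 and 13.36 against 13.12 and 12.88 (-0.45, SE 0.17; limma, unadjusted p = 0.043, adjusted p = 0.594). For both genes the groups did not overlap, so the sign could not change with a single array left out. The difference then ran from -0.61 to -0.43 for Dnajb4 and from -0.57 to -0.33 for Dnaja4. Dnajb1 (Hsp40), the main inducible partner of Hsp70, followed Hspa1a instead: 9.80 on Ctrl-MI replicate 1 and 8.91 on replicate 2, against 8.29 and 9.02. Its difference was -0.70 (SE 0.38) with all arrays and -0.26 without Ctrl-MI replicate 1. Dnaja2, a constitutive partner of Hsp70, was on the other side at 9.08 and 9.55 against 9.42 and 10.03 (0.41, SE 0.27), with overlap of the groups. Its difference came to 0.18 with Ctrl-MI replicate 1 left out and to 0.11 with TTg-MI replicate 2 left out. The other cytosolic class B genes (Dnajb2, Dnajb3, Dnajb6, Dnajb7, Dnajb8 and Dnajb13) differed by -0.20 to 0.20.

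The cytosolic class C genes, a mixed group in splicing, ribosome and signalling complexes, differed by -0.23 to 0.36. Dnajc17, a nuclear J-protein, had the smallest p of them, at 7.39 and 7.16 against 7.53 and 7.73 (0.36, SE 0.17). On vesicles and endosomes, Dnajc27 read 6.11 and 6.31 against 6.48 and 6.48 (0.27, SE 0.16) and Dnajc13, an endosomal J-protein, 8.49 and 8.00 against 8.30 and 8.53 (0.17, SE 0.22). Dnajc5g, related to the vesicle J-protein Dnajc5, read 5.38 and 5.12 against 5.64 and 5.59. Both of its Ctrl-MI values lay under the lower quartile, so its difference of 0.37 (SE 0.17) was not shown to be above background in that group. The other vesicle genes, Dnajc5, Dnajc5b, Dnajc6 and Dnajc22, differed by -0.091 to -0.016, and the unassigned Hspb11, Hspbap1 and Cct8l1 by -0.33, 0.23 and 0.24. Cct6b, Dnajb3 and Dnajc22 lay under the lower quartile on every array.

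Bag proteins release the client from Hsp70. Bag3, the muscle member that pairs with Hspb8, read 13.94 and 13.78 in Ctrl-MI and 13.06 and 13.96 in TTg-MI. Only TTg-MI replicate 1 was low, and the difference of -0.35 (SE 0.31) was 0.10 without that array. Bag5 differed by -0.22 (SE 0.30) and Bag4 by -0.105 (SE 0.16), and the groups overlapped for all 6 Bag genes.

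The cytosolic chaperonin, a ring of related subunits that folds actin and tubulin, was represented by 7 genes with differences of -0.28 to 0.13 and a median of -0.139. Cct2 read 14.24 and 14.16 in Ctrl-MI and 13.75 and 14.15 in TTg-MI (-0.25, SE 0.19), so that TTg-MI replicate 2 all but met the controls. Cct7 read 6.71 and 6.75 against 6.60 and 6.54 (-0.157, SE 0.15), and Cct8 11.06 and 11.71 against 10.91 and 11.29 (-0.28, SE 0.27). The Cct8 difference was 0.044 without Ctrl-MI replicate 2. None of the 7 had an unadjusted limma p under 0.05, and the smallest adjusted p was 0.806.

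Mitochondrial chaperones lay higher in the transgenic hearts. Dnaja3 (Tid1), the J-protein of the mitochondrial Hsp70, read 10.59 and 11.32 in Ctrl-MI and 11.48 and 11.61 in TTg-MI, a difference of 0.59 (SE 0.27). Hspa9 (mortalin), the mitochondrial Hsp70 that pulls proteins in through the inner membrane, read 11.60 and 12.15 against 12.15 and 12.48 (0.45, SE 0.24). Hspd1 (Hsp60) and Hspe1 (Hsp10), the 2 parts of the mitochondrial chaperonin, read 13.95 and 14.69 against 14.56 and 15.08, and 10.79 and 11.16 against 11.16 and 11.43. In these 4 genes Ctrl-MI replicate 1 was the lowest array, while Ctrl-MI replicate 2 lay near TTg-MI replicate 1. Dnajc28 read 8.88 and 9.34 against 9.67 and 9.47 (0.47, SE 0.21), and Dnajc11, a J-protein of the cristae-organizing complex, read 10.29 and 10.49 against 10.72 and 10.65 (0.29, SE 0.16).

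The differences of Hspd1 and Hspe1 were 0.50 (SE 0.31) and 0.32 (SE 0.20). None of the 10 reached an unadjusted limma p of 0.05 on the values as deposited (smallest 0.0713, for Dnajc28, adjusted p = 0.631). After quantile normalization Dnaja3 and Dnajc28 did (limma, unadjusted p = 0.0468 and 0.0478, adjusted p = 0.588 and 0.588). Without Ctrl-MI replicate 1 the difference was 0.23 for Dnaja3, 0.24 for Dnajc28, 0.17 for Hspa9 and 0.13 for both Hspd1 and Hspe1. The groups did not overlap for 5 of the 10 (50%, against 19.4% of all probes in that direction), namely Dnaja3, Dnajc11, Dnajc28, Hspa9 and Hspe1, the last 2 by under 0.01 units. The remaining members were Dnajc4 (0.35, SE 0.22), Dnajc15 (0.24, SE 0.22) and Dnajc19 (0.19, SE 0.22), of which the last 2 serve the import motor, and Dnajc30 (0.02, SE 0.34). Leaving out Ctrl-MI replicate 1 took the median from 0.34 to 0.148, with 7 of 10 higher, and leaving out Ctrl-MI replicate 2 took it to 0.53. With the first transgenic heart left out it was 0.41, and with the second 0.26, when 9 of 10 were higher.

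**Figure D3:**
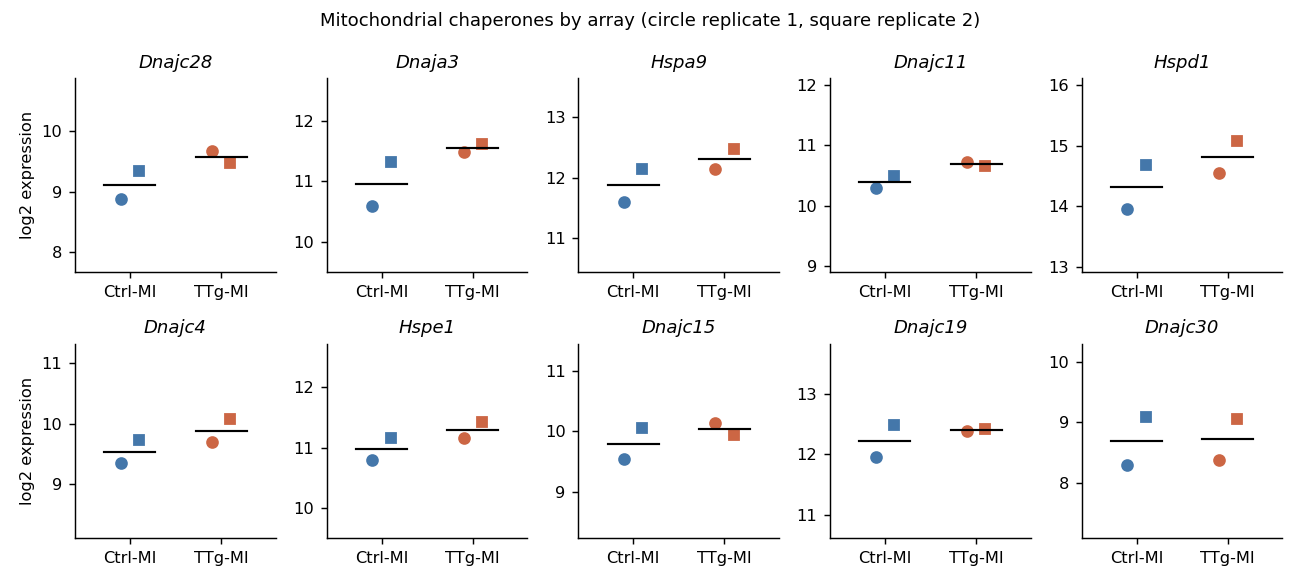
Log2 expression of the 10 mitochondrial chaperone genes on each array, ordered by p; circles are replicate 1, squares replicate 2, bars are group means, and every panel spans the same number of log2 units. Every TTg-MI mean is above its Ctrl-MI mean, and Ctrl-MI replicate 1 is the lowest array in all 10 panels.

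Hspd1 and Hspe1 lie head to head and share a regulatory stretch that holds a heat shock element. The full element, 3 units that alternate between GAA and TTC with 2 free bases between them, was searched on both strands; it contains the short core and was found in 0.662% of all genes with a RefSeq window of 250 bases before to 50 after the start, and in 4 of the 69 members with a window: Hspd1, Hspe1, Dnajb6 and Hsph1. The 30 bases shown for Hspe1 (chr1:55088053-55088082, plus strand) also lie in 1 of the 2 windows of Hspd1, and those for Dnajb6 (chr5:29735846-29735875, plus strand) in both of its windows. They are shown because they carry the same element beside genes whose means differed in opposite directions. Neither Hspe1 nor Dnajb6 reached an unadjusted limma p of 0.05, and the pair was chosen with the values known. The Dnajb6 stretch also overlaps Gm5129. Capitals mark the element, 2 overlapping matches at Hspe1.
Hspe1: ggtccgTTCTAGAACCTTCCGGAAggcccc
Dnajb6: ctccgaGAATCTTCCGGAAcgctagaccag
Dnajb6, a cytosolic J-protein that keeps desmin and other proteins from aggregating, read 13.59 and 13.58 in Ctrl-MI and 13.45 and 13.31 in TTg-MI (-0.20, SE 0.15). The short core, added after the values were seen, was found in 19 of the 69 members (27.5%, against 17% of all genes). Of these, 7 were higher and 12 lower by their means, the median difference being -0.20, and of the other 50 members with a window 27 were higher and 23 lower, with a median of 0.037. Among the 6 genes at an unadjusted p under 0.05, 5 had a window and 4 of them (Hspb1, Dnajb4, Hspb8 and Dnaja4) held the core. Since the core was chosen with the values known, these counts are no test of it. Of the mitochondrial genes only Hspd1 and Hspe1 held it, and the part of compartment in the counts was not tested. A match in the letters is a description and does not show that Hsf1 binds there.

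ER chaperones differed little and in both directions. Hspa5 (BiP), an Hsp70 of the ER, read 17.46 and 17.93 in Ctrl-MI and 18.14 and 17.87 in TTg-MI. The groups overlapped, and the difference of 0.31 (SE 0.22) had a 95% interval of -0.24 to 0.86. It was 0.071 without Ctrl-MI replicate 1 and 0.54 if the other control was dropped. Dnajb9, a J-protein induced by ER stress, read 9.69 and 10.48 against 9.78 and 10.28, a difference of -0.055 (95% interval -0.84 to 0.73). Dnajc3 (p58IPK), an ER-stress gene that restrains the kinase Perk, read 9.23 and 9.04 against 9.04 and 8.86 (-0.18, SE 0.17). Hspa13, a microsomal Hsp70, read 10.14 and 10.28 against 10.03 and 9.91 (-0.24, SE 0.16), and Dnajb12, an ER membrane J-protein, 8.92 and 9.04 against 8.78 and 8.72 (-0.23, SE 0.15). All 13 lay between -0.24 and 0.31, and the smallest adjusted p in limma was 0.759. The ER median became 0.027 with TTg-MI replicate 2 left out and -0.18 with TTg-MI replicate 1 left out.

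Hspa5 and Dnajc3 are shown because they are the 2 members whose windows hold the full ER stress element (CCAAT, 9 free bases, then CCACG, on either strand), found in 0.137% of all genes. The 160 bases before each start (chr2:34771930-34772089 and chr14:118937772-118937931, plus strand) carry it in capitals.
Hspa5: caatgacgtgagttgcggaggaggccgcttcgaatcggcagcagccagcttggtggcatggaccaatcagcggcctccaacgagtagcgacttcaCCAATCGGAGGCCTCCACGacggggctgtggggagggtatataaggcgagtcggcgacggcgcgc
Dnajc3: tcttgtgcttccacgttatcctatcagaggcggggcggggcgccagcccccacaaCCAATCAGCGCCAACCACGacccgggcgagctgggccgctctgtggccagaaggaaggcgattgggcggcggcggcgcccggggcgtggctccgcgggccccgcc
The 2 genes differed in opposite directions, and neither reached an unadjusted limma p of 0.05. Dnajb11, an ER J-protein that binds Hspa5, differed by 0.05 (SE 0.20), and its window held the second ER stress element (ATTGG, 1 free base, then CCACG, on either strand), found in 0.0444% of all genes.

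**Figure D4:**
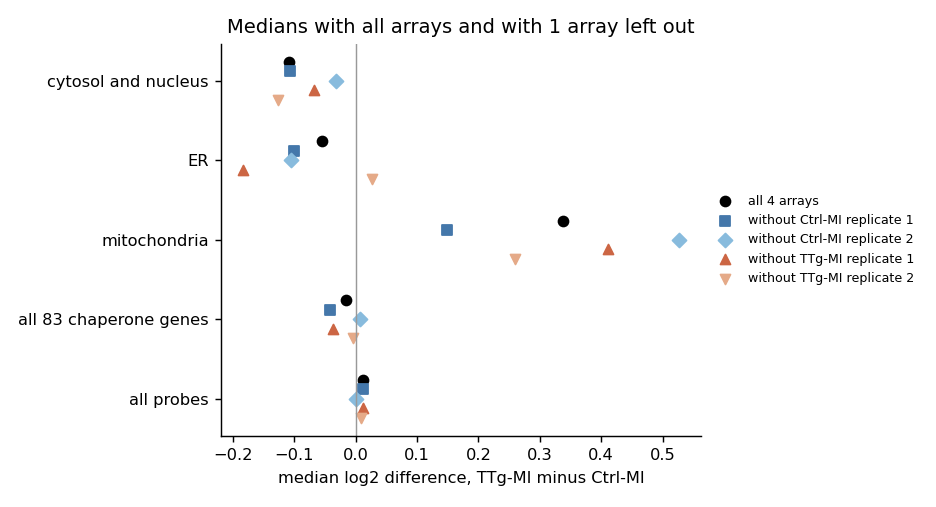
Median log2 difference (TTg-MI minus Ctrl-MI) of each compartment, of the 83 genes and of all probes, with all 4 arrays and with each array left out in turn. The mitochondrial median stays above 0 (0.148 to 0.53) and the cytosolic below 0 (-0.127 to -0.031), while the ER median changes sign.

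Related genes outside the symbol rule were read from lists written with earlier results of these data known. Of 15 Hsp90 and cochaperone genes measured, 5 were higher and 10 lower by their means in TTg-MI, and the median difference was -0.128. Trap1, the mitochondrial Hsp90, read 12.30 and 12.54 in Ctrl-MI and 12.95 and 13.11 in TTg-MI (0.61, SE 0.17; limma, unadjusted p = 0.0126, adjusted p = 0.546). The cytosolic Hsp90aa1 read 13.62 and 13.87 against 12.69 and 13.44 (-0.68, SE 0.28, and -0.31 without TTg-MI replicate 1), and Fkbp5, a glucocorticoid-induced Hsp90 partner, 11.64 and 10.47 against 8.86 and 10.10 (-1.58, SE 0.53; limma, unadjusted p = 0.0272; -2.19 to -0.96 with single arrays left out). Trap1 thus differed in the direction of the mitochondrial chaperones and Hsp90aa1 in that of the inducible cytosolic ones. The low array of Hsp90aa1 was TTg-MI replicate 1, whereas Hspa1a, Hspa1b and Dnajb1 stood out on Ctrl-MI replicate 1. The Hsp90 cochaperones Fkbp4 (0.79, SE 0.43, and 0.12 without Ctrl-MI replicate 1) and Stip1 (0.23, SE 0.27) were among the 5 higher genes, against the 10 lower. Of 16 genes of mitochondrial import and protein quality, 14 were higher and 2 lower, where 52.3% of all probes were higher. None had an unadjusted limma p under 0.05. Their median difference was 0.30 with all arrays and 0.083 without Ctrl-MI replicate 1. The import motor gene Timm44 (0.66, SE 0.29) and the protease gene Yme1l1 (0.72, SE 0.35) were among the higher genes, at 0.26 and 0.19 without that array. Of 18 ER stress and folding genes, 7 were higher and 11 lower, with a median of -0.154. At an unadjusted limma p under 0.05, 3 were lower, where 5.07% of all probes were. They were the stress-response factor Atf4 (-0.88, SE 0.23), Calr (-0.45, SE 0.16) and Sdf2l1 (-0.41, SE 0.15).

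Other genes differed along with the chaperones. All 12 early response genes had a lower TTg-MI mean, where 47.7% of all probes did. Of the 12, 6 were lower at an unadjusted limma p under 0.05, where 5.07% of all probes were. Their mean level was 10.05 on Ctrl-MI replicate 1 against 8.98 on replicate 2 and 8.50 and 8.63 in TTg-MI. Atf3, a stress-induced transcription factor, read 11.03 and 8.96 against 7.91 and 7.00. Ctrl-MI replicate 1 was thus the high array for these genes, as for Hspa1a, Hspa1b and Dnajb1. For 8 of the 12, however, both TTg-MI hearts lay below both controls, where 18.7% of all probes did. In the chaperone genes just named, Ctrl-MI replicate 2 lay between the TTg-MI hearts. Junb read 8.93 and 8.77 against 8.21 and 8.18, and Jun 10.34 and 10.05 against 9.34 and 9.58. The median difference of the 12 was -0.75 with all arrays and -0.40 without Ctrl-MI replicate 1. All 7 fibroblast markers measured were lower, with mean levels of 12.70 and 11.81 in Ctrl-MI and 11.44 and 10.20 in TTg-MI, as were all 7 macrophage markers, at 10.72 and 9.57 against 9.06 and 8.61. All 8 cardiomyocyte markers had a higher mean, where 52.3% of all probes did. However, Myh6, Tnnt2 and Pln on all 4 arrays and Myl2 on 3 lay within 1 unit of the highest value. The median difference of the 8 was 0.136 with all arrays and 0.003 without Ctrl-MI replicate 1. Ryr2, the calcium release channel, had the largest difference of the 8 and read 15.09 and 15.97 against 16.24 and 16.60. Of 6 atrial markers 4 were higher, and their mean level was 9.04 on Ctrl-MI replicate 2 against 12.75 to 14.11 on the other arrays. The part of these differences in the chaperone values was not tested, and in whole-heart RNA fewer cells of a type and less RNA per cell cannot be told apart.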

How the data were processed

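Total RNA of RIN over 7.0 was labelled from 100 ng and hybridised to Clariom S Mouse arrays, per the labels' protocols. Deposited values were treated as log2 expression, the base being inferred from their range of about 4 to 20; the submitters' processing notes name Affymetrix Expression Console 1.4. The normalization, summarization, annotation version and build are not given in the sources used here. No further normalization or filter was applied. For arrays the number of samples limits the precision.

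Of 22206 probes, 19572 had 1 gene symbol in the platform annotation, 0 several, and 2634 were unnamed here. The fit was limma 3.58.1 in R 4.3.3 over all probes (lmFit, eBayes, two-sided, 3.56 prior and 2 residual degrees of freedom), Benjamini-Hochberg adjusted at a threshold of 0.05, and was tested on simulated data. An exact permutation test of 2 against 2 cannot give a two-sided p below 0.333. Named are 13 measured core genes, the 3 smallest p per class and compartment, and the 8 largest differences, 31 in all; others are given for their values or class. Compartments follow general knowledge of each protein. Members, lists and motifs were chosen with earlier results of these data known. Promoter windows are RefSeq's on GRCm38.p6, matched by symbol for 69 members. The array's build is not stated, so no probe coordinates are given. Alternatives were arrays median-centred or quantile-normalized, removal of dim probes, a robust eBayes prior with trend and an ordinary linear model. Further ones were the replicate number as a block, an adjusted threshold of 0.1 and leaving out each array. Medians without dim and near-highest members were added after seeing the data.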

Additional observations from a re-analysis of the deposited data

How the results depend on the processing

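Across the alternatives, 26 of the 31 named genes kept their direction; the other 5 changed sign only when an array was left out, with ranges of -0.80 to 0.10 for Bag3, -0.62 to 0.19 for Bag5, -0.61 to 0.044 for Cct8, -0.45 to 0.34 for Dnajb9 and -0.076 to 0.41 for Dnajc13. Probes past the adjusted limma threshold numbered 4 with eBayes trend and robust prior, 0 in the ordinary linear model (1241 at an unadjusted p under 0.05) and 1 to 332 as arrays were left out, the highest without Ctrl-MI replicate 2. Chaperone genes at an unadjusted p under 0.05 numbered 3 with dim probes removed (8.91% of all probes), 2 with the trend and robust prior (8.01%), and 2 to 14 without single arrays (3.88% to 14.7%). Those without overlap numbered 50 to 65 without single arrays (66.4% to 73% of all probes), where fewer arrays have to be separated. The median of all 83 was 0.0036 after quantile normalization and -0.041 to 0.0074 without single arrays; the cytosolic median was -0.084 after quantile normalization and -0.127 to -0.031 without single arrays. The ER median ran from -0.18 to 0.027 and the mitochondrial from 0.148 to 0.53 without single arrays. With the replicate number as a block, 7 probes passed and 7 chaperone genes had an unadjusted limma p under 0.05 (11.1% of all probes). Of these chaperone genes 3 were higher, namely Dnaja3, Hspd1 and Hspa9. The other 4 were lower and included Hspb1, Dnajb4 and Dnaja4. The labels give no shared source for arrays of the same number, so they are not taken as pairs. Their deviations correlated at 0.163, which with 2 arrays per group cannot decide the pairing. Each gene was read by 1 probe, and a mean over the probes of a gene was not computed. The cause of these changes was not tested.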
